A study of Mus musculus with 6 samples.

Results

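The colony-stimulating factors (CSFs) and the cytokines that signal through the receptor subunit gp130 were described as a group of 10 genes out of the 24982 genes that were listed. The group holds 3 CSF ligands (*Csf1*, *Csf2* and *Csf3*), 4 gp130 ligands (*Il6*, *Il11*, *Lif* and *Clcf1*) and 3 receptor subunits (*Lifr*, *Il6st* and *Osmr*). The genes were chosen by name with the contrast between the lines in view, since *Csf3* was almost lost and *Lifr* came up in the DKSFM cells. The coverage values that chose them are the ones given here, so these values are a description, with no test or call for the 10 genes.

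RNA was sequenced from 2 untreated keratinocyte lines of C57BL/6 neonatal skin, in 3 libraries per line. The KSFM-Ca2+ cells were derived and kept in a keratinocyte serum-free medium with low calcium. The DKSFM cells descend from them. They are the few survivors that regrew after most cells were lost on transfer to a defined keratinocyte medium with more calcium. The medium, with its calcium level, and the passage through this loss differ between the lines together and cannot be told apart. Nothing in the labels says that replicates were separate cultures, so p-values measure only the spread between these samples, which may be technical. The deposited data of KSFM-Ca2+ replicate 3 and of all DKSFM replicates are marked as combined, a word that is not explained in the sources used here, and the comparison was also made within these 4 libraries.

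The measurement was the mean read coverage per base of each gene, listed to 1 decimal. A value per base takes length into account, but how coverage was computed is not stated in the sources used here. Comparisons of level between genes are therefore approximate. The sum over genes, in the order of the replicates, was 1601676, 1238411 and 1057750 for KSFM-Ca2+ and 1174348, 1239438 and 1170675 for DKSFM. Levels are given as coverage normalized between libraries, as mean ± SD of the 3 libraries of a line. A log2 fold change is DKSFM over KSFM-Ca2+ on the log2(normalized coverage + 0.1) scale, which understates the change of genes with low coverage. A gene was tested when its normalized coverage was at least 0.5 in at least 3 libraries, and was called when the adjusted p in limma was under 0.01 and the change at least 2-fold. Of the 12409 tested genes, 13.2% were called higher and 10.5% were called lower in DKSFM. All 3 DKSFM libraries lay above all 3 KSFM-Ca2+ libraries in 41.2% of the tested genes and below them in 42.1%.

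The keratinocyte label was checked against marker genes. All 8 keratinocyte markers were tested, 4 were called higher in DKSFM (*Krt5*, *Krt14*, *Perp* and *Dsp*) and 0 lower. Beside this and the other marker lists stand 13.2% called higher and 10.5% called lower over all tested genes. *Krt14*, which encodes a keratin of basal keratinocytes, was the most abundant marker, at 11970 ± 225 in KSFM-Ca2+ and 29720 ± 1517 in DKSFM. Of the 8 fibroblast markers, 7 were listed at 0 in all 6 libraries, *Col1a1* and *Col1a2* among them. The exception was *Pdgfra*, at 1.11 ± 0.206 and 2.22 ± 0.119. Leukocytes matter here because they are the usual targets of CSFs. Among the 8 leukocyte markers, *Adgre1* and *Tyrobp* were listed at 0 in all libraries, and *Ptprc*, which encodes CD45, and *Laptm5* were listed above 0 in 1 DKSFM library only and *Itgam* in 2. *Fcer1g*, which did not enter the test, was at 0.137 ± 0.0864 in KSFM-Ca2+ and 0.595 ± 0.277 in DKSFM. The summed level of these 8 genes was 12.1, 12.7 and 14.6 in the KSFM-Ca2+ libraries and 14.5, 19.2 and 21.3 in the DKSFM libraries, most of it from *Cd68*, a lysosomal gene that is not restricted to leukocytes. *Cd74* was the leukocyte marker that was called, from 1.53 ± 0.337 in KSFM-Ca2+ to a listing at 0 in all DKSFM libraries, and passed the filter through KSFM-Ca2+ alone. Of the 4 endothelial markers *Pecam1* was called higher (2.78 ± 0.255 and 7.58 ± 0.601), while *Cdh5* was listed at 0 throughout. Summed levels of the 4 endothelial markers were 2.82, 3.16 and 3.3 in KSFM-Ca2+ and 8.28, 8.29 and 7.42 in DKSFM. Of the 4 melanocyte markers 0 were tested, *Dct* and *Tyr* were listed at 0 in all libraries, and *Pmel* was the most abundant at 0.594 ± 0.184 and 0.343 ± 0.145. The part of these markers in the differences described here was not tested. In such bulk samples, fewer cells of a type and less RNA per cell cannot be told apart.

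CSFs are secreted proteins that keep myeloid cells alive and drive them to divide and mature: CSF1 acts on macrophages, CSF3 on neutrophils, and CSF2 on both lineages, and keratinocytes are a known source of them in irritated skin. The cytokines of the interleukin-6 family bind receptor complexes that share gp130, the product of *Il6st*, alone or together with the LIF receptor (*Lifr*) or the oncostatin M receptor (*Osmr*), and activate JAK kinases and the transcription factor STAT3. SOCS3 binds gp130 and ends the signal, and in epidermis the pathway is known for its place in wound healing and inflammation.

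Many cytokine mRNAs are short-lived because their 3′ untranslated region (UTR) holds AU-rich elements, repeats of ATTTA in DNA letters to which decay factors bind. The 30 bases of the 3′ UTR with the most ATTTA repeats are shown for the 3 ligands that were lower in DKSFM by more than 2-fold, since this feature of the mRNA was not used in choosing the genes. They lie at chr11:54247329-54247358 on the minus strand for *Csf2*, and on the plus strand at chr11:98702984-98703013 for *Csf3* and chr11:4272414-4272443 for *Lif* (GRCm38, GENCODE M21). Capitals mark ATTTA.
Csf2: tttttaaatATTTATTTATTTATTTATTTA
Csf3: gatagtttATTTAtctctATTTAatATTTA
Lif: ATTTAttcaatgtcatATTTAaaatATTTA
The 30 bases hold 5 overlapping or separate copies of ATTTA in *Csf2*, 3 in *Csf3* and 3 in *Lif*. The longer word TATTTAT, with overlapping matches counted, was found in the 3′ UTR of all 7 ligands and in 0 of the 3 receptors. *Csf2* had 9 copies in a 3′ UTR of 317 bases. *Il11* had 6 copies in 1194 bases, *Lif* 5 in 3180, *Clcf1* 4 in 922, *Csf3* 2 in 669, *Il6* 1 in 427 and *Csf1* 1 in 2111. The 3′ UTRs without the word were long, at 6320 bases in *Lifr*, 5641 in *Il6st* and 1794 in *Osmr*. Over the 19266 genes with a 3′ UTR, which had a median length of 854 bases, 25.5% held the word at least 1 time and 0.083% at least 9 times. The word is thus present both in ligands that were lower in DKSFM and in *Csf1*, whose level overlapped between the lines.

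*Csf3*, which encodes the granulocyte CSF, showed the largest difference of the 10 genes among those with a coverage above 0 in both lines. It lies at chr11:98700183-98703631. Its normalized coverage in replicates 1 to 3 was 153, 163 and 173 for KSFM-Ca2+, against 0.212, 0.200 and 0.106 for DKSFM. All KSFM-Ca2+ libraries were high and the DKSFM libraries were at 1 or 2 rounding steps of the listing. The means were 163 ± 10 and 0.173 ± 0.0581, a ratio of 944, and rounding of the listed values alone would allow a ratio as small as 725. The log2 fold change was -9.25, and -9.30 within the combined libraries. With pseudocounts of 0.5 and 1 it was -7.93 and -7.13, which shows how far the log2 value of a gene near 0 rests on the pseudocount.

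*Csf2*, which encodes the granulocyte-macrophage CSF (chr11:54247270-54249899), had a much lower level than *Csf3*. Replicates 1 to 3 had 2.44, 2.97 and 4.60 in KSFM-Ca2+ but 0, 0.200 and 0.106 in DKSFM. The lines did not overlap, and 1 DKSFM library was listed at 0. Means were 3.34 ± 1.13 and 0.102 ± 0.10, a ratio of 32.7 with 21.4 as the smallest that rounding would allow. A listing step of 0.1 is worth an approximate 0.941 reads for this short transcript, so the DKSFM values stand for about as few reads as can be seen. The log2 fold change was -4.18, -4.62 within the combined libraries, and -2.65 and -1.95 with pseudocounts of 0.5 and 1.

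*Csf1*, which encodes the macrophage CSF (chr3:107741048-107760469), differed from both. It was at 40.9, 38.0 and 40.6 in KSFM-Ca2+ and at 40.4, 38.1 and 37.3 in DKSFM. The lines overlapped, with means of 39.8 ± 1.62 and 38.6 ± 1.63 and a log2 fold change of -0.04 (-0.07 within the combined libraries).

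CSF coverage was therefore made up mainly of *Csf3* in KSFM-Ca2+ and nearly of *Csf1* alone in DKSFM. The 3 CSF ligands summed to 197, 204 and 218 in the KSFM-Ca2+ libraries, of which *Csf3* made up 77.9%, 79.9% and 79.3%. In the DKSFM libraries the sum was 40.7, 38.5 and 37.5, of which *Csf1* made up 99.5%, 99.0% and 99.4%. The mean sum was 206 ± 11.1 in KSFM-Ca2+ and 38.9 ± 1.61 in DKSFM.

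**Figure D1:**
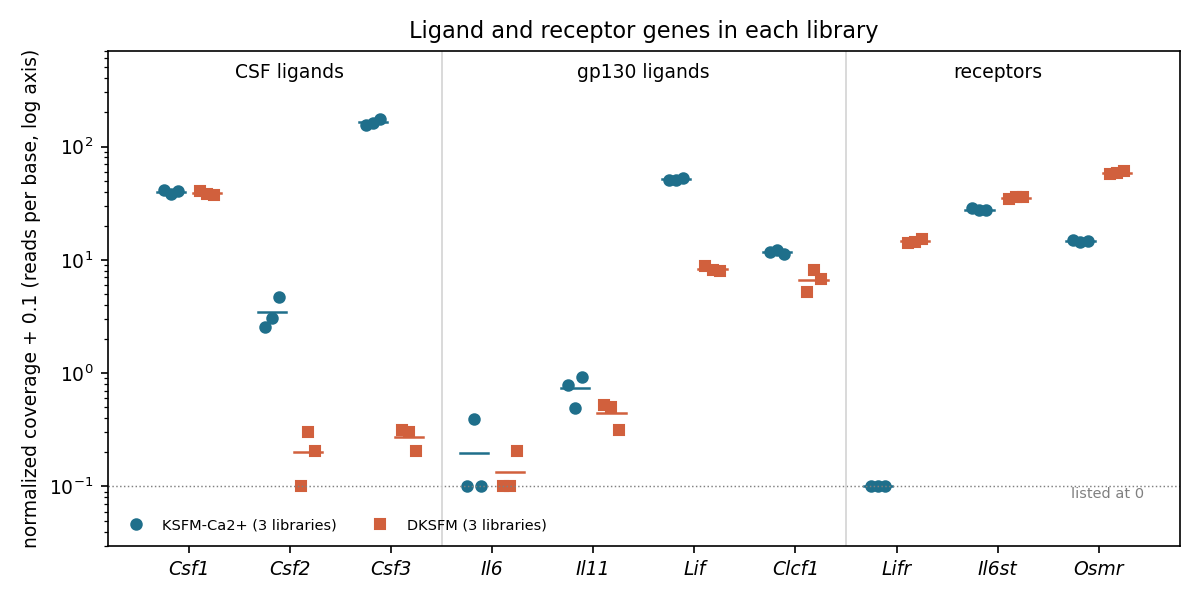
Normalized coverage + 0.1 (reads per base, log axis) of the 10 genes in each library, with circles for the 3 KSFM-Ca2+ and squares for the 3 DKSFM libraries, short lines at the means and a dotted line where a gene is listed at 0. *Csf3*, *Csf2* and *Lif* lie lower in all DKSFM libraries, *Osmr* and *Lifr* higher, and *Csf1* overlaps.

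Among the gp130 ligands, *Lif* was the most abundant in KSFM-Ca2+. *Lif* encodes leukaemia inhibitory factor, which binds LIFR together with gp130 (chr11:4257568-4272514). Its level was 50.5, 50.9 and 53.0 in KSFM-Ca2+ and 8.71, 8.09 and 7.84 in DKSFM. The lines were far apart relative to their spread, at 51.5 ± 1.31 and 8.21 ± 0.443, a 6.27-fold lower mean in DKSFM. The log2 fold change was -2.63, and -2.67 within the combined libraries. *Lif* thus kept a readily measured level in DKSFM, unlike *Csf3* on the same chromosome.

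*Clcf1* encodes a cytokine that binds the CNTF receptor, LIFR and gp130 (chr19:4214238-4223505). It was at 11.6, 12.2 and 11.1 in KSFM-Ca2+ and at 5.10, 7.99 and 6.68 in DKSFM. The lines did not overlap, but the difference was under 2-fold, with means of 11.6 ± 0.536 and 6.59 ± 1.45 and a log2 fold change of -0.83 (-0.77 within the combined libraries). Its coverage is uncertain because the listed gene *Gm45928* overlaps it (chr19:4214425-4233632) and reads could be split between both. *Gm45928* had 88.3 ± 4.43 in KSFM-Ca2+ and 36.8 ± 3.12 in DKSFM, far above *Clcf1* in each line.

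*Il6* and *Il11*, which encode ligands that signal through paired gp130 and a receptor of their own, were close to the limit of the listing and did not enter the test. *Il6* (chr5:30013114-30019975) had listed values of 0, 0.3 and 0 in KSFM-Ca2+ against 0, 0 and 0.1 in DKSFM. No direction can be read from these values, in which 1 library per line was above 0. *Il11* (chr7:4772373-4782907) reached a normalized coverage of 0.686, 0.396 and 0.826 in KSFM-Ca2+ and 0.425, 0.400 and 0.212 in DKSFM. These ranges overlapped, with a log2 fold change of -0.71, or -0.42 and -0.28 with pseudocounts of 0.5 and 1. Within the combined libraries, of which KSFM-Ca2+ has 1, the lines did not overlap and the log2 fold change was -1.08.

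Coverage of these 4 gp130 ligands summed to 62.8, 63.8 and 64.9 in KSFM-Ca2+ but only to 14.2, 16.5 and 14.8 in DKSFM. The sum leaves out *Ctf1* and *Cntf*, further gp130 ligands that were higher in DKSFM, so with them the difference would be smaller. *Ctf1* was at 6.17 ± 0.796 in KSFM-Ca2+ and at 17.4 ± 3.81 in DKSFM, where it lay above *Lif*. *Cntf* was at 2.85 ± 0.305 and 4.36 ± 0.498. *Clcf1* stood at 20.9% to 23.9% of *Lif* in KSFM-Ca2+ and at 58.5% to 98.8% in DKSFM.

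*Lifr*, which encodes the LIF receptor (chr15:7090610-7197489), had a listing of 0 in each KSFM-Ca2+ library and a normalized coverage of 13.9, 14.2 and 15.3 in DKSFM. No fold is given against a line listed at 0. The DKSFM mean was 14.5 ± 0.717, a level above that of 37.4% of the tested genes in this line. On the log2 scale with the 0.1 pseudocount the difference was 7.18 (7.08 within the combined libraries), and it was 4.90 and 3.95 with pseudocounts of 0.5 and 1.

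*Osmr*, which encodes the receptor subunit for oncostatin M and lies near *Lifr* (chr15:6813568-6874968), was measured in both lines. It was at 14.9, 14.3 and 14.6 in KSFM-Ca2+ and at 57.1, 57.8 and 60.5 in DKSFM. The spread within each line was small against the gap between them, with means of 14.6 ± 0.30 and 58.5 ± 1.82, a 3.99-fold higher level in DKSFM and a log2 fold change of 1.99 in the comparison of all libraries and of the combined ones.

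*Il6st*, the gene of gp130 itself (chr13:112464070-112506860), differed little. Its level was 28.3, 27.3 and 27.3 in KSFM-Ca2+ and 34.4, 35.4 and 35.5 in DKSFM. The lines did not overlap, but the higher level in DKSFM was only 1.27-fold, at 27.6 ± 0.579 and 35.1 ± 0.608 (log2 fold change 0.35, and 0.36 within the combined libraries). Coverage per base lets the subunits be set beside each other only approximately, because the length used for each gene is not stated. *Osmr* stood at 52.8%, 52.5% and 53.7% of *Il6st* in KSFM-Ca2+ but at 166%, 163% and 170.4% in DKSFM. Which of both subunits had the higher coverage thus differed between the lines. *Lifr* stood at 40.4%, 40.1% and 43.0% of *Il6st* in DKSFM. The 3 receptor subunits summed to 42.2 ± 0.850 in KSFM-Ca2+ and to 108 ± 3.01 in DKSFM.

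**Figure D2:**
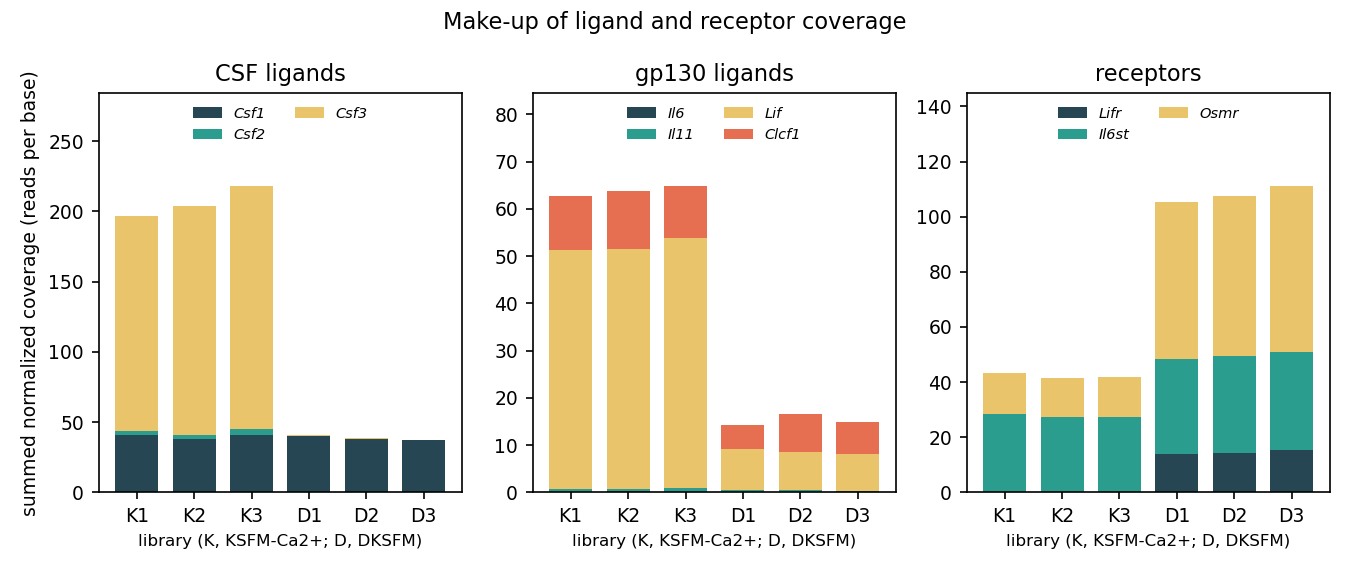
Summed normalized coverage (reads per base, linear axis from 0) of the CSF ligands, the gp130 ligands and the receptor subunits in the KSFM-Ca2+ (K1 to K3) and DKSFM (D1 to D3) libraries, with a colour for each gene. The sums of the ligands shown, which leave out *Ctf1* and *Cntf*, are lower in DKSFM. There *Csf1* makes up nearly all of the CSF bar. The receptor sum is higher in DKSFM, with *Lifr* seen in DKSFM only.

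The order of the 10 genes by level was different in each line. In KSFM-Ca2+ it ran *Csf3*, *Lif*, *Csf1*, *Il6st*, *Osmr*, *Clcf1*, *Csf2*, *Il11*, *Il6* and *Lifr*. The ranges over the 3 libraries did not overlap between neighbours, except for *Il6* and *Lifr*. *Csf3* lay above 87.9% of the tested genes there, *Lif* above 67.0% and *Osmr* above 38.5%. In DKSFM the order ran *Osmr*, *Csf1*, *Il6st*, *Lifr*, *Lif*, *Clcf1*, *Il11*, *Csf3*, *Csf2* and *Il6*. The ranges of *Lif* and *Clcf1* overlapped in this line, although *Lif* was above *Clcf1* within each library. The ranges of *Il11*, *Csf3*, *Csf2* and *Il6* overlapped or touched from each gene to the next. *Osmr* lay above 70.1% of the tested genes and *Csf3* above 1.4%. A ligand was thus the highest of the 10 genes in KSFM-Ca2+ and a receptor in DKSFM.

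**Figure D3:**
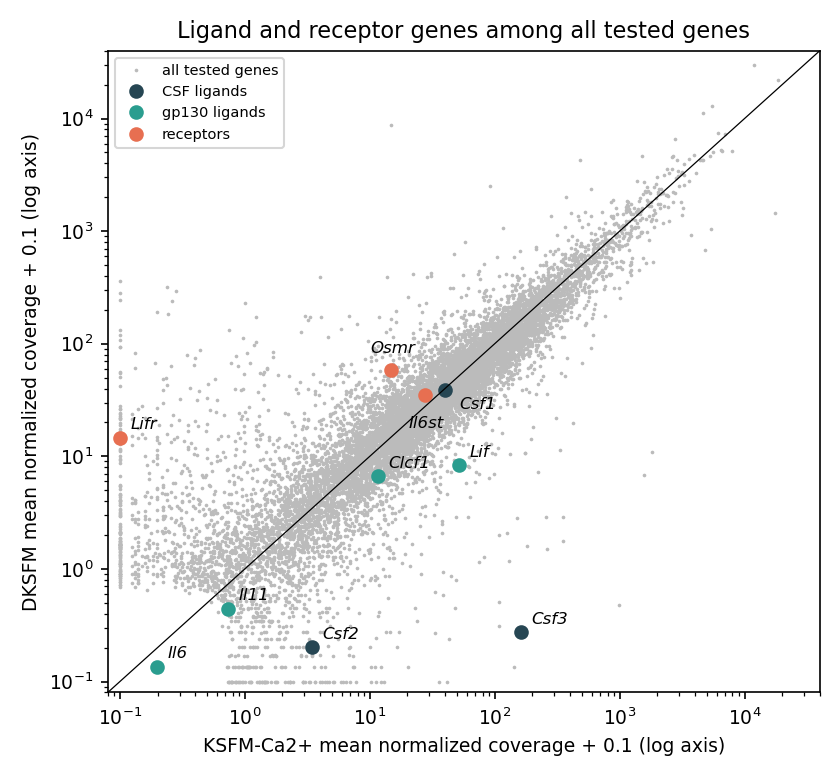
Mean normalized coverage + 0.1 in KSFM-Ca2+ (horizontal log axis) and DKSFM (vertical log axis) for all 12409 tested genes (grey) and the 10 genes by role (colours), with a line of equality. *Csf3* lies far below the line and *Lifr* at the left edge, where KSFM-Ca2+ is listed at 0, while *Csf1* and *Il6st* lie close to the line.

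Of the 10 genes, 8 passed the filter for the test, with *Il6* and *Il11* left out. *Lifr* passed through the DKSFM libraries alone, and *Csf2* and *Csf3* through the KSFM-Ca2+ libraries alone. Without overlap between the lines, 3 genes were higher in DKSFM and 4 were lower, beside 41.2% and 42.1% of all tested genes. The 3 genes higher without overlap were the 3 receptors, and the 4 lower ones were ligands. Nothing is read from these counts, because the genes were selected on this contrast. For the chromosome region, the chromosomes were cut into fixed windows of 20 Mb, so a gene can lie near the edge of its window. The median log2 fold change of the other tested genes in the window was taken relative to that of all tested genes. It was 0.55 for *Il11*, 0.50 for *Csf1*, 0.31 for *Lif*, 0.18 for *Lifr* and *Osmr* and 0.12 for *Il6*. The value was -0.03 for *Clcf1*, -0.14 for *Csf2*, -0.18 for *Il6st* and -0.24 for *Csf3*.

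As a feature that was not used in choosing the genes, promoters were read from the RefSeq table (GRCm38.p6), which held windows of 250 bases before to 50 bases after the start for 8 of the 10 genes, in 10 windows. *Csf3* and *Clcf1* were not among them. Both strands were searched for the STAT word TTCNNNGAA, the AP-1 word TGANTCA and the NF-kappaB site, words that did not overlap each other where they were found. Over all 32817 promoter windows of the table, 8.29% held the STAT word, 7.81% the AP-1 word and 4.5% the NF-kappaB site. The STAT word was in 0 of the 10 windows. The AP-1 word was found in 4 genes, *Il6*, *Il11* (in 1 of its windows), *Lif* and *Osmr*, and the NF-kappaB site in 2, *Csf1* and *Il6*. The windows are shown for *Lif* (chr11:4257318-4257617, plus strand) and *Osmr* (chr15:6874264-6874563, minus strand), a ligand and a receptor with opposite differences that both hold the AP-1 word, and for *Csf1* (chr3:107760420-107760719, minus strand), whose level overlapped and which holds the NF-kappaB site. Capitals mark the matches.
Lif: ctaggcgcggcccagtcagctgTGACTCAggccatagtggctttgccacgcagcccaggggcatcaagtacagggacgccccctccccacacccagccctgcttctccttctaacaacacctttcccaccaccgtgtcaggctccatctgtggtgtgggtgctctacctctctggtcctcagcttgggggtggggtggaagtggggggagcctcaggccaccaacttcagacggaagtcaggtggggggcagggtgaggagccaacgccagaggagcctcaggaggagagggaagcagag
Osmr: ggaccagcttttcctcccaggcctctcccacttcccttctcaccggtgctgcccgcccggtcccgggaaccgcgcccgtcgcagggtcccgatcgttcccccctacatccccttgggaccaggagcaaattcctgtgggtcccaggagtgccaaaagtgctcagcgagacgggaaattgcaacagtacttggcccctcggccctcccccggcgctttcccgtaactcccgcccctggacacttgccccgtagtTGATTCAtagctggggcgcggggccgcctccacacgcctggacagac
Csf1: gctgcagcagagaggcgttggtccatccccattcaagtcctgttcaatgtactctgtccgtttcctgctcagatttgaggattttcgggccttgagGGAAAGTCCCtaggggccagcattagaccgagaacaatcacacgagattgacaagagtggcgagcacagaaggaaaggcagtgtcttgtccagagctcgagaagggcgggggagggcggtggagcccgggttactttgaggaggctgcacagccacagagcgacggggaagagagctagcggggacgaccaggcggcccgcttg
The match began 228 bases before the start in *Lif*, at base 4 after it in *Osmr* and 154 bases before it in *Csf1*. In *Il6*, whose window is not shown, the AP-1 word began 249 and the NF-kappaB site 44 bases before the start. The AP-1 word is thus found in a gene that was lower, in one that was higher and in both genes near the limit of the listing. A match is a match of letters only.

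The genes most like *Csf3* and *Lifr* were found by the root mean square difference of their log2 values over the 6 libraries, each gene taken relative to its own mean. Closest to *Csf3* were *Ctsz* (0.34), *Lpl* (0.43), *Ccl20* (0.45), *Prl6a1* (0.55) and *Arhgdib* (0.74). *Ccl20*, a chemokine gene, had 107 ± 5.37 in KSFM-Ca2+ and 0.208 ± 0.00712 in DKSFM. *Ctsz* and *Lpl* were listed at 0 in all DKSFM libraries. Closest to *Lifr* were *Ptn* (0.04), *Flnc* (0.07), *Klf15* (0.08), *Lipm* (0.08) and *Aff3* (0.10). All 5 were listed at 0 in every KSFM-Ca2+ library, as *Lifr* was, and *Ptn* had 14.7 ± 0.0874 in DKSFM beside 14.5 ± 0.717 for *Lifr*.

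The other genes of these pathways were taken from 9 lists with 85 genes. Of these, 69 were tested, 14 (20.3%) were called higher and 6 (8.7%) lower, beside 13.2% and 10.5% of all tested genes, and 49 were not called. The median log2 fold change was 0.17 in the lists and -0.001 over all tested genes. The lists were chosen with earlier results of these data known, so nothing is read from these shares or medians. *Stat4* among the higher and *Saa3* among the lower genes passed the filter only through the line where they are high. *Il34*, whose product shares the CSF1 receptor with CSF1 and is a keratinocyte cytokine, fell from 32.4 ± 3.48 to 2.94 ± 0.481 (log2 fold change -3.43, SE 0.13, adjusted p = 8.29e-08), whereas *Csf1* overlapped. *Ctf1*, which encodes the LIFR ligand cardiotrophin-1, rose from 6.17 ± 0.796 to 17.4 ± 3.81 (log2 fold change 1.46, SE 0.16, adjusted p = 5.15e-05), against the direction of *Lif*. *Cntf* (2.85 ± 0.305 and 4.36 ± 0.498) differed by less than 2-fold. *Ebi3* was at 0.138 ± 0.149 and 0.483 ± 0.101 without entering the test, and *Il5* and *Il27* were listed above 0 in 2 libraries and 1 library. *Osm*, the ligand of the *Osmr* product, was listed at 0 in all 6 libraries, as were *Il3* and *Il31*.

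The receptors for the CSFs were low or listed at 0 in both lines. *Csf3r* and *Csf2rb2* were listed at 0 in all libraries, and *Csf1r* was above 0 in 1 DKSFM library only. *Csf2ra*, the specific subunit for CSF2, was at 0.501 ± 0.284 and 1.95 ± 0.394, a log2 fold change of 1.85, but of 1.12 within the combined libraries and 0.98 with a pseudocount of 1. The call in all libraries was lost in both alternatives. The gene reached the filter level in all DKSFM libraries but in 1 KSFM-Ca2+ library only, so its p-value is not given. *Csf2rb*, its signalling partner, was at 0.0254 ± 0.0440 and 0.658 ± 0.321 and did not enter the test. It reached the filter level of 0.5 in DKSFM replicates 1 and 2 only. With no filter, and where 2 libraries sufficed because a KSFM-Ca2+ library or DKSFM replicate 3 was left out, it was tested and called higher. This makes 2 called CSF receptors, but nothing is read from it. The gene reached the level in DKSFM alone, where it is high, with KSFM-Ca2+ near 0. Of the 6 receptors that pair with gp130 or the OSM receptor, 2 were tested and both were called higher in DKSFM, beside 13.2% of all tested genes. *Il6ra* rose from 10.8 ± 0.521 to 31.2 ± 1.32 (log2 fold change 1.52, SE 0.06, adjusted p = 8.89e-08) and *Il11ra1* from 2.43 ± 0.389 to 7.68 ± 1.17 (log2 fold change 1.62, SE 0.15, adjusted p = 2.02e-05), while their ligand genes *Il6* and *Il11* were near the limit of the listing in both lines. *Cntfr* was at 0.254 ± 0.0373 and 0.173 ± 0.161, and *Il11ra2*, *Il27ra* and *Il31ra* were listed at 0.

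Downstream of the receptors, 1 of the 11 JAK and STAT genes was called, where 13.2% of all tested genes were called higher and 10.5% lower. This was *Stat4*, at 0.0330 ± 0.0571 and 0.726 ± 0.0824. It passed the filter through the DKSFM libraries alone, where it is high, and its log2 fold change was 2.71, but 0.74 with a pseudocount of 1, so its p-value is not given. *Stat3*, named after its values were seen because gp130 signals through it, had 121 ± 2.29 and 210.1 ± 5.33, a difference under 2-fold (log2 fold change 0.79, SE 0.03, adjusted p = 1.04e-07). Of 10 tested adaptors and phosphatases 1 was called, beside the same 13.2% and 10.5%, namely *Gab1*, an adaptor of SHP2, which rose from 16.6 ± 1.27 to 48.0 ± 2.16. Of the 8 SOCS genes, 2 rose and 1 fell, where 13.2% of all tested genes were called higher and 10.5% lower. *Socs3* rose from 14.3 ± 1.26 to 42.0 ± 1.92 (log2 fold change 1.55, SE 0.07, adjusted p = 2.70e-07) and *Socs2* from 29.3 ± 3.09 to 120.2 ± 1.88 (log2 fold change 2.04), and *Socs1* fell from 4.07 ± 0.0968 to 1.35 ± 0.218 (log2 fold change -1.53). *Socs4*, named after its values were seen, was at 9.14 ± 0.438 and 4.56 ± 0.561 (log2 fold change -0.99) and not called, but it was called lower without DKSFM replicate 2 (-1.08), without KSFM-Ca2+ replicate 3 (-1.03) and with library totals (-1.01), which makes 2 SOCS genes that fell. Among 17 tested genes known as STAT3 targets, 5 rose, 2 fell and 10 were not called (13.2% and 10.5% of all tested genes were called higher and lower), with a median log2 fold change of -0.07. *Mcl1* (99.8 ± 0.474 to 204.8 ± 4.74), *Fosl2* (27.8 ± 0.822 to 100.3 ± 1.16), *Bcl6* (12.8 ± 0.962 to 47.1 ± 2.54) and *Bcl3* (4.20 ± 0.488 to 14.1 ± 0.835) rose, as did *Cebpd*, which is named here after its values were seen. The acute-phase genes *Lcn2* (83.0 ± 4.14 to 12.7 ± 1.13) and *Saa3* (33.2 ± 2.33 to 0.171 ± 0.154) fell, and the log2 fold change of *Saa3* was -7.16, or -6.56 without DKSFM replicate 3 and -5.68 and -4.88 with pseudocounts of 0.5 and 1. *Saa3* passed the filter through the KSFM-Ca2+ libraries alone.

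The next list held 12 regulators of cytokine mRNA, not all of which act through AU-rich elements. Of these 1 rose and 2 fell, beside 13.2% called higher and 10.5% called lower over all tested genes. Their median log2 fold change was -0.18. *Zfp36l1*, which encodes a protein that binds AU-rich elements and speeds mRNA decay, rose from 12.5 ± 0.829 to 76.9 ± 1.47 (log2 fold change 2.61, SE 0.05, adjusted p = 4.55e-09). *Arid5a*, whose product is known to stabilize *Il6* mRNA, fell from 47.0 ± 2.92 to 9.22 ± 1.54 (log2 fold change -2.35, SE 0.11, adjusted p = 3.20e-07), and *Zc3h12a*, which encodes the ribonuclease Regnase-1, fell from 13.5 ± 0.613 to 3.92 ± 0.119 (log2 fold change -1.76, SE 0.07, adjusted p = 1.19e-07). Of the 4 genes for receptor shedding and ligand release 0 were called by limma, beside the same 13.2% and 10.5%. All 4 had an adjusted p under 0.01 in limma with changes under 2-fold, but so small a p was found for 9008 of the 12409 tested genes. The part of these genes in the levels of the 10 genes was not tested.

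**Figure D4:**
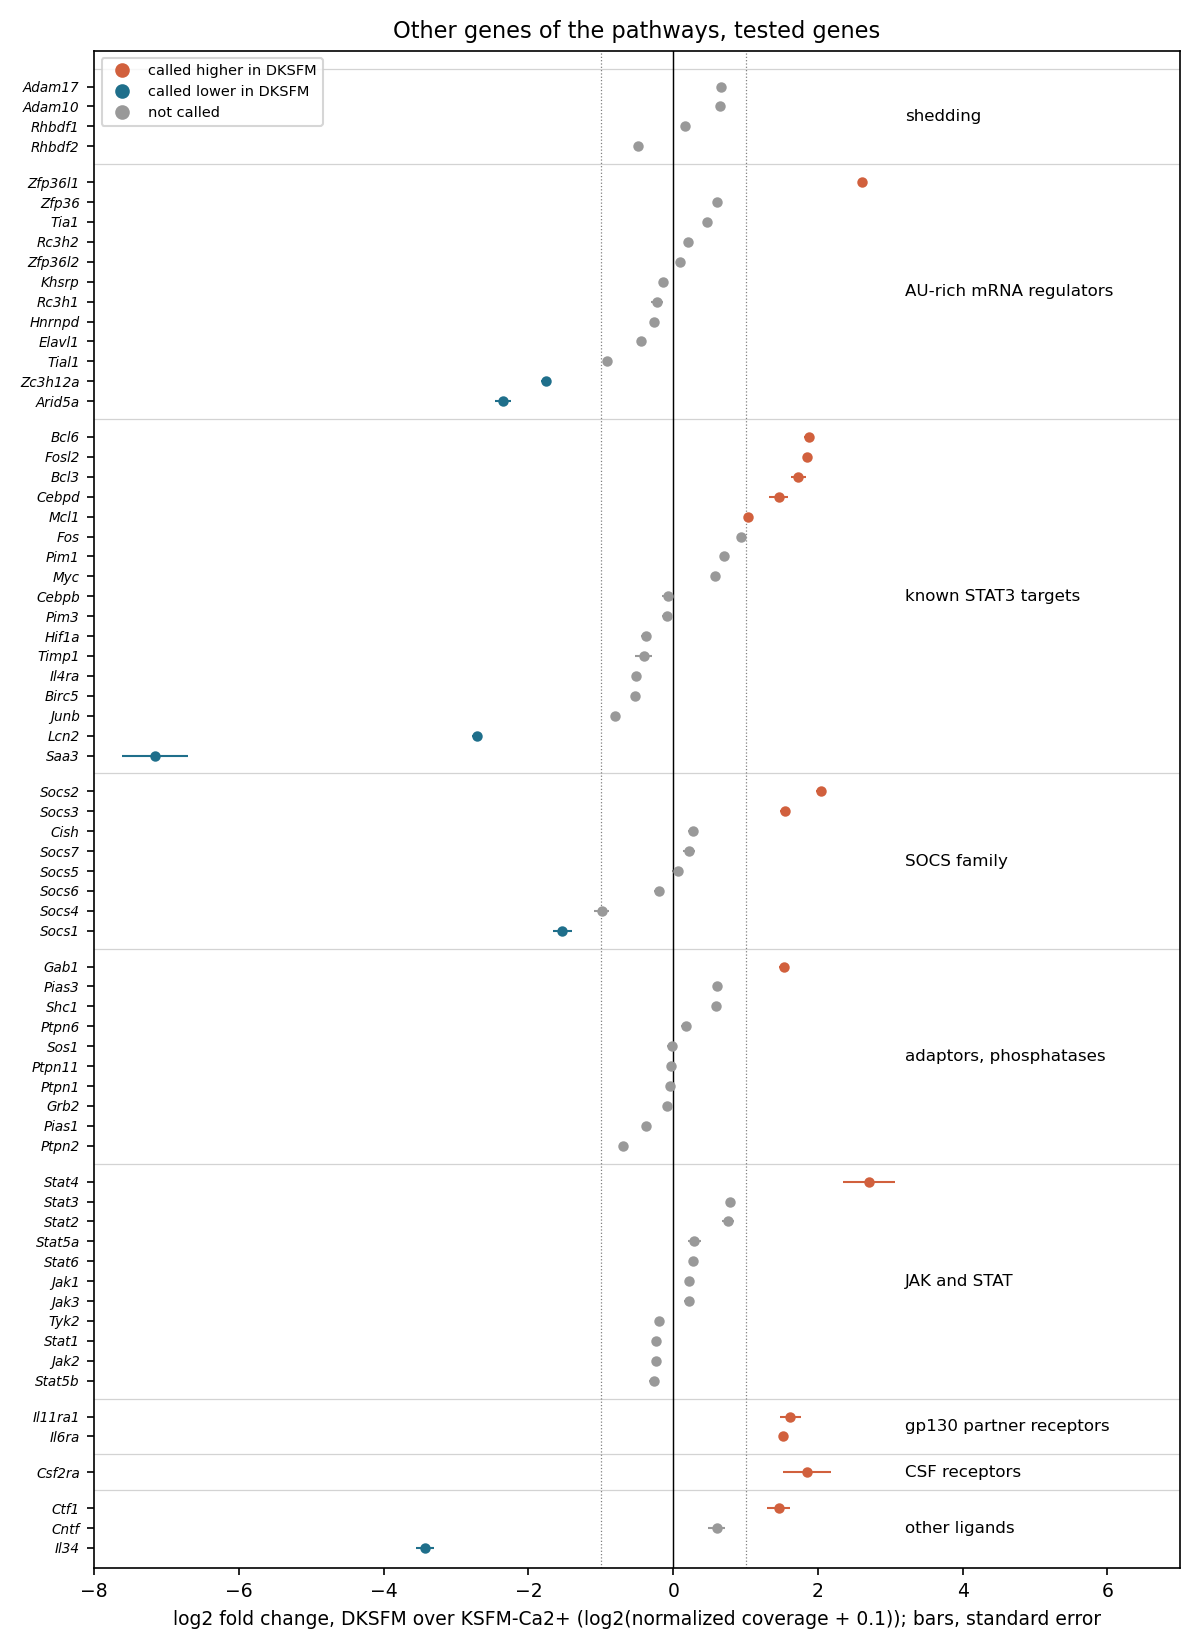
Log2 fold change (DKSFM over KSFM-Ca2+, log2(normalized coverage + 0.1) scale) of the tested genes in the 9 lists that are reported here, with bars for the standard error, dotted lines at 2-fold and colours for genes called higher, called lower or not called. Both tested partner receptors lie to the right, *Il34* and *Ctf1* lie on opposite sides, and most JAK, STAT and adaptor genes lie within the dotted lines.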

How the data were processed

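Single reads of poly(A) libraries had been aligned by the authors to mm10 with STAR and quantified with Salmon. The lines were compared by the authors with DESeq2. For each gene the deposited signal was the mean read coverage per base, which the authors had not scaled to depth. How coverage was computed is not stated in the sources used here. Because coverage is not a count, a count model was not used. Coverage was scaled between libraries by the trimmed mean of M values without weights (trims of 30% of M and 5% of A values), which moved the library totals by factors of 0.991 to 1.01. A gene entered the test if 3 or more libraries reached a normalized coverage of 0.5 (2 or more when a library was omitted), and tests were made on log2(normalized coverage + 0.1) with limma 3.58.1 in R 4.3.3, with an intensity trend and no covariate, and Benjamini-Hochberg adjustment over the 12409 tested genes. A call required an adjusted p under 0.01 and a 2-fold change. Python 3.11.15, pandas 2.3.3 and matplotlib 3.10.9 were used for the rest. The procedure was tested on simulated data.

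Intervals for counting error need read counts and are not given. Low values are limited by the 0.1 rounding step. Reads per step were approximated from the transcript length and a read length of 85 bases. Gene positions were RefSeq positions on GRCm38.p6, found for 24417 genes through the symbol and for 474 through a synonym, with 91 unmatched. 3′ UTRs were those of GENCODE M21 transcripts that are paired with a RefSeq mRNA, the longest of each gene.

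The 10 genes and the gene lists were chosen with earlier results of these data known. The genes given by name were the 10 members, every ligand and receptor of the lists above 0 in at least 1 library (of which 1 is not reported here), up to 4 called genes per direction with the highest coverage in each other list, the 5 genes most like *Csf3* and *Lifr*, and the cell type markers. The alternatives were library totals, median-of-ratios factors, pseudocounts of 0.5 and 1, no filter, a filter on every library, no trend, a replicate block, omission of each library in turn, and the combined libraries alone.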

Additional observations from a re-analysis of the deposited data

How the results depend on the processing

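The number of genes called higher in DKSFM was 1636, and 1032 when a normalized coverage of at least 0.5 was asked of every library, a filter that removes genes near 0 in KSFM-Ca2+ such as *Lifr*. No other alternative moved the counts of called genes, over all genes or summed over the 9 pathway lists, by more than 1.5 times. Counts within single lists did move. *Socs4* was called lower without DKSFM replicate 2, without KSFM-Ca2+ replicate 3 and with library totals, so that 2 SOCS genes fell in place of 1. *Csf2ra* was not called within the combined libraries or with a pseudocount of 1, and *Stat4* was not called with a pseudocount of 1, which left 0 called CSF receptors and 0 called JAK and STAT genes. With the filter in every library *Csf2ra*, *Stat4* and *Saa3* were not tested, nor was *Saa3* within the combined libraries, which leaves 1 called lower among the STAT3 targets. *Csf2rb* reached a normalized coverage of 0.5 in DKSFM replicates 1 and 2 only. With no filter, and where 2 libraries sufficed because a KSFM-Ca2+ library or DKSFM replicate 3 was left out, it was tested and called higher. This makes 2 called CSF receptors, but nothing is read from it, since the gene reached the level in DKSFM alone. No alternative reversed a direction among the named genes that were called. With the replicate number as a replicate block 1641 genes were called higher in DKSFM, and no call of a named gene changed. Same-numbered libraries of the lines did not deviate together (correlations of -0.005, 0.024 and -0.006 across genes), so the numbers were not taken as pairs. Among the 10 genes, the log2 fold changes of *Csf2*, *Csf3* and *Lifr* depended on the pseudocount, because a line lies at or near 0. So did those of *Il11* (-0.71, and -0.42 and -0.28 with pseudocounts of 0.5 and 1) and *Il6* (-0.32, and -0.13 and -0.08), both low in each line. The sign for *Il6*, which was not tested, changed without KSFM-Ca2+ replicate 2 (0.35 in place of -0.32) and within the combined libraries (0.33). The rounding step of 0.1 limits what can be said of *Il6*, *Il11* and, in DKSFM, of *Csf2* and *Csf3*.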
